A study of Mus musculus with 23 samples.

Results

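Liver RNA of 6 female mice aged 7 weeks, 3 CTL and 3 *Pparg*Δ/Δ, was compared gene by gene, out of 23 liver samples of both sexes and of 2 ages in the study. The *Pparg*Δ/Δ mice lack the gene in the whole body, carry no adipose tissue and develop a fatty liver, and the comparison asks which liver transcripts differ in them at the earlier of both ages. CTL are control littermates without the deletion. Both genotypes shared a mixed C57BL6/SV129 background and a 12-hour light and 12-hour dark cycle, and each array held the RNA of 1 liver. The members are the 6 arrays that the labels give as female, 7 weeks, control or *Pparg* delta/delta, and the fit also held the 6 male arrays of 7 weeks to estimate the spread. Since the gene was absent from every tissue, differences that come from the liver and those that follow from the missing adipose tissue cannot be told apart.

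*Pparg* encodes PPARγ, a nuclear receptor that binds fatty acid ligands and directs the formation and maintenance of fat cells. Without fat cells, dietary and newly made fatty acids are stored in other tissues, mostly the liver, and the circulating signals of fat tissue such as leptin and adiponectin are missing. Mouse liver is also a tissue of strong sex differences, in which the pattern of growth hormone secretion keeps whole families of cytochrome P450, sulfotransferase and major urinary protein genes at different levels in males and females.

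Values are log2 signals from robust multi-array averaging (RMA) on Affymetrix Mouse Gene 1.0 ST arrays, for which a difference of 1 is a doubling. The array medians over the 21652 genes tested lay between 6.54 and 6.59 in the 6 females, and arrays of 1 genotype correlated at 0.9936 to 0.9958, compared with 0.9889 to 0.9924 between genotypes. Hepatocyte markers were high in all 6 females, and *Alb*, which encodes albumin, had 13.67, 13.63 and 13.65 in CTL against 13.78, 13.64 and 13.70 in *Pparg*Δ/Δ females. Background features of the array had medians of 3.59 to 3.84 per array. The 6 female arrays carried the pattern of their label, with *Xist* at 12.26 to 12.41 and a mean of 4 Y-linked genes at 3.63 to 3.78. Of the male arrays, 1 did not: the library labelled male *Pparg*Δ/Δ replicate 3 had *Xist* at 12.31 and the Y-linked mean at 3.62, whereas the other 5 had *Xist* at 4.32 to 4.96 and the Y-linked mean at 8.52 to 8.68. This array, called the doubtful array below, takes no part in any female mean, but it enters the common spread, so the counts of called genes are given with and without it, as are male values on which a result turns. With 3 arrays per group, their number limits the precision of every difference.

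*Pparg* itself had signals of 8.37, 8.24 and 8.57 in CTL females and 10.08, 10.23 and 9.88 in *Pparg*Δ/Δ females. The signal was thus higher in every *Pparg*Δ/Δ female, by 1.67 (SE 0.13, limma adjusted p = 4.97e-05). Which exons its 35 probes cover (NCBIM37, chromosome 6, 115310969 to 115440419) relative to the deleted part is not given in the sources used here, so this signal does not check the genotype.

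Between genotypes, 227 genes were higher and 180 lower in *Pparg*Δ/Δ females (limma, adjusted p under 0.05, no minimum fold change), which are 1.05% and 0.831% of the genes tested and 1.88% together. Without the male array that went against its label, 265 were higher and 196 lower, and 373 of the 407 were called in both fits. With adjustment over the female comparison alone, 121 and 90 were called, all of them among the 407. The median difference was 0.72 over the higher and -0.60 over the lower genes, and 93 genes differed by more than 1 on the log2 scale, 65 up and 28 down. In all 407 called genes the values of the 3 CTL and 3 *Pparg*Δ/Δ females lay apart, which was so for 20.6% of the genes tested, 8.91% with *Pparg*Δ/Δ higher and 11.7% with it lower. A smaller set of 135 genes was called whichever of the 12 arrays was left out, and of the 74 called genes that are named 40 were. The other calls were lost on leaving out at least 1 array, and some on leaving out any of several. *Insr*, for example, lost its call without CTL female replicate 1, 2 or 3.

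**Figure D1:**
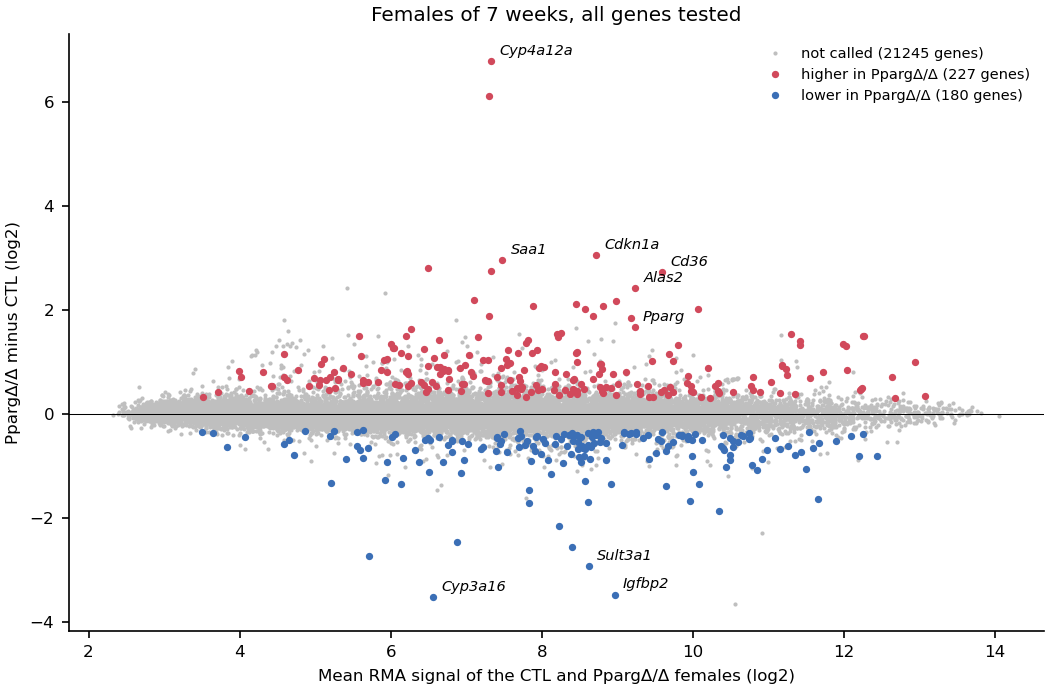
Difference between *Pparg*Δ/Δ and CTL females of 7 weeks (log2, y axis) against the mean signal of both genotypes (log2, x axis) for 21652 genes. Each point is a gene, with 227 genes called higher and 180 called lower in colour, and *Cyp4a12a* lies highest at 6.79.

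The largest rises of called genes were in *Cyp4a12a* and *Cyp4a12b*, which encode fatty acid hydroxylases of the P450 family that are known for male-biased expression in mouse liver. *Cyp4a12a* (chromosome 4, 114971651 to 115005420) had 3.60, 4.11 and 4.08 in CTL females, near the background features, and 9.84, 11.50 and 10.83 in *Pparg*Δ/Δ females. The difference was 6.79 (SE 0.66, limma adjusted p = 0.000219), and the CTL males lay at 11.63, 12.25 and 12.59. *Cyp4a12b* had 3.92, 4.35 and 4.46 in CTL against 9.67, 11.10 and 10.31 in *Pparg*Δ/Δ females, a difference of 6.12 (SE 0.66, adjusted p = 0.000531). Every *Pparg*Δ/Δ female lay below every CTL male and far above every CTL female. The pair is nearly identical in sequence, so probes cannot be assigned to 1 of them with certainty.

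Of 32 genes listed as male-biased in mouse liver, 5 rose in *Pparg*Δ/Δ females (15.6%) and none fell, with a list median of 0.12 against -0.02 over all genes tested. Over all genes tested, 1.05% rose and 0.831% fell, and every list count below is to be read beside these shares. Besides both *Cyp4a12* genes, these were *Cyp2d9*, *Mup20* and *Dntt*. *Cyp2d9*, a P450 that hydroxylates steroids, had 9.36, 8.86 and 9.20 in CTL against 10.64, 10.60 and 10.14 in *Pparg*Δ/Δ females, between CTL females and CTL males (11.93, 11.94 and 12.00). It rose by 1.32 (SE 0.27, adjusted p = 0.0206), with an adjusted p of 0.000893 without the array that went against its label. *Mup20*, which encodes the urinary protein pheromone darcin, had 9.87, 10.66 and 11.06 in CTL against 12.13, 12.14 and 11.95 in *Pparg*Δ/Δ females, a rise of 1.54 (SE 0.24, adjusted p = 0.00453). Its probes also match other major urinary protein genes and its value is uncertain. *Dntt*, which encodes a template-independent DNA polymerase of lymphocyte precursors, rose by 0.56 (SE 0.13, adjusted p = 0.0316), from 4.81, 4.79 and 4.69 to 5.08, 5.48 and 5.42. These signals are low, beside background features with medians of 3.59 to 3.84. *Dntt* lost its call in 9 of the 22 alternative analyses given below. Most of the list did not pass the test, among them *Hsd3b5*, a steroid dehydrogenase, at 4.74, 6.99 and 5.50 in CTL against 5.50, 5.63 and 4.38 in *Pparg*Δ/Δ females (difference -0.58, adjusted p = 0.619). *Cyp7b1*, also on this list, went the other way by -1.06 and narrowly missed the call (SE 0.27, limma adjusted p = 0.0513). Of the 32 genes, 19 had a positive difference.

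The female-biased list had 34 measured genes, of which 5 fell and 1 rose, with a list median of -0.48. *Cyp3a16*, a P450 of drug and steroid metabolism (chromosome 5, 146197178 to 146230563), had 9.35, 7.55 and 8.05 in CTL against 5.30, 4.14 and 4.95 in *Pparg*Δ/Δ females, a fall of 3.52 on the log2 scale (SE 0.59, adjusted p = 0.00701). CTL males lay at 3.54, 3.63 and 3.50, below all *Pparg*Δ/Δ females. *Sult3a1*, a sulfotransferase, had 9.48, 10.21 and 10.58 in CTL against 8.03, 6.80 and 6.66 in *Pparg*Δ/Δ females, with a difference of -2.93 (SE 0.56, adjusted p = 0.0137). Its neighbour *Gm4794*, now named *Sult3a2*, fell by 2.74 on the same scale (SE 0.39, adjusted p = 0.00274), from 6.56, 7.02 and 7.68 to 4.82, 4.05 and 4.16. *Sult3a1* and *Gm4794* are close copies, so their values are uncertain as to which of them was read. *Atp6v0d2*, a subunit of the vacuolar proton pump, had 10.37, 8.999 and 9.69 in CTL against 7.27, 7.53 and 6.58 in *Pparg*Δ/Δ females (difference -2.56, SE 0.37, adjusted p = 0.00325). *Trim24*, a transcriptional co-regulator, fell by 0.62 (SE 0.15, adjusted p = 0.0382), and *Rtn4*, a protein of the tubular endoplasmic reticulum, rose by 0.47 (SE 0.11, adjusted p = 0.0321). Among the 28 listed genes that did not pass the test, *Cyp2b9*, a female-biased P450, had 13.25, 13.14 and 13.19 in CTL against 13.16, 13.15 and 13.10 in *Pparg*Δ/Δ females (difference -0.05, SE 0.55, adjusted p = 0.981). Its SDs were 0.055 in CTL and 0.033 in *Pparg*Δ/Δ females, so this SE reflects mostly the male arrays of the common fit.

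**Figure D2:**
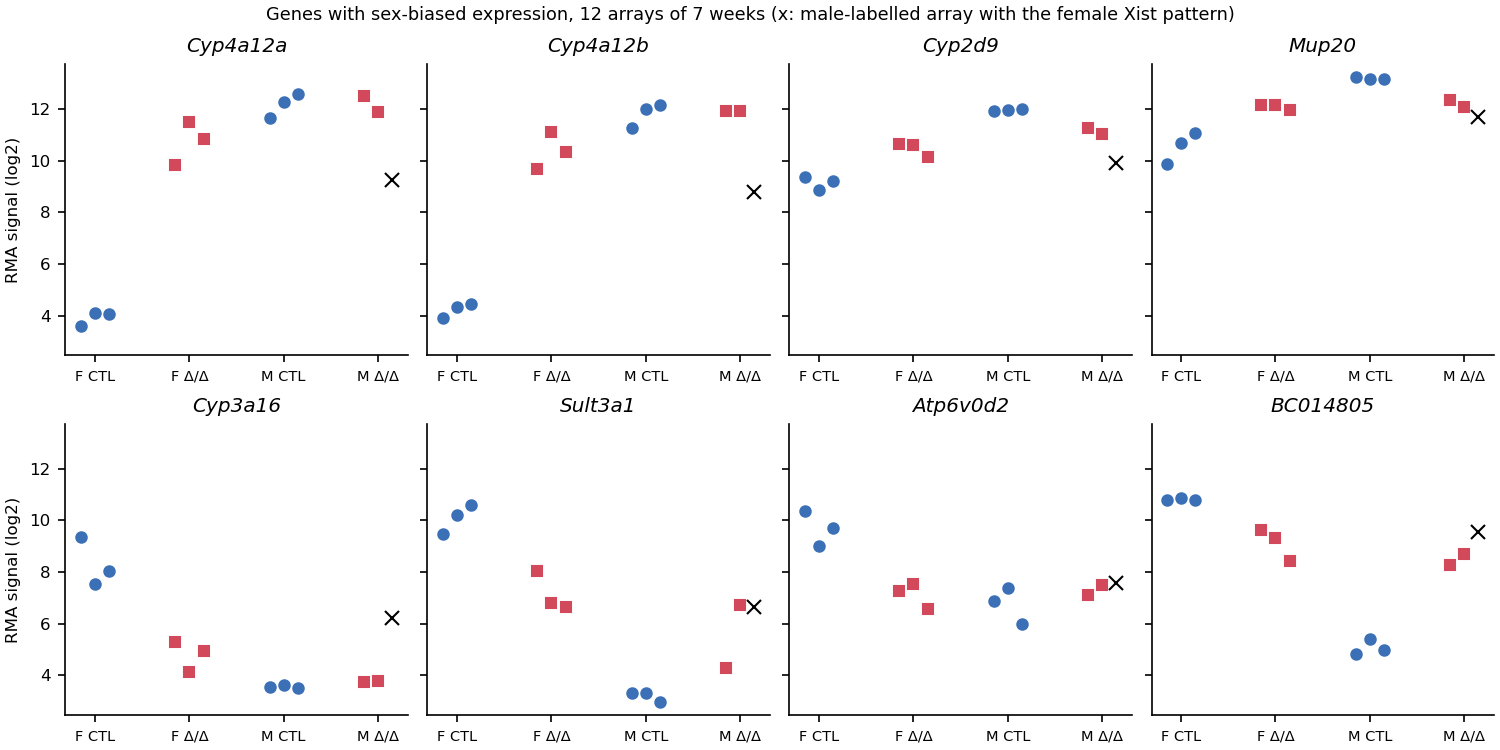
RMA signal (log2, y axis) of 8 genes with sex-biased expression in the 12 arrays of 7 weeks, with 1 point per array, F for females, M for males and n = 3 per group. The cross marks the male-labelled array with the *Xist* pattern of females. CTL females stand apart from the other groups in *Cyp4a12a*, at 3.60 to 4.11.

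Set beside the males of the same age, where 735 genes were higher and 248 lower (3.39% and 1.15%; 729 and 202 without the array that went against its label), 138 genes were called higher and 54 lower in both sexes, and 7 were called in opposite directions (without that array, 136 were higher and 47 lower in both). The former are 60.8% of the genes called higher in females and 18.8% of those in males, and the latter 30.0% and 21.8%. No control array is shared between these 2 comparisons, but they share 1 estimate of the spread. The difference between the sexes in the effect of genotype was called for 34 genes, 17 of each sign (0.0785% each), and 29 of the 34 were also called without the doubtful array, where there were 17 and 35. Among the negative values, *Cyp2b9* (-6.46, adjusted p = 0.00378), *Cyp2b13* (-6.10, adjusted p = 0.00378), *Sult3a1* (-5.62, adjusted p = 0.0115) and *Cyp2a22* (-5.45, adjusted p = 0.000814) encode enzymes of drug and steroid metabolism. *Cyp2b9*, *Cyp2b13* and *Cyp2a22* differed by -0.05, -0.54 and -0.16 in females and by 6.40, 5.56 and 5.29 in males. *Sult3a1* differed by -2.93 in females and 2.69 in males. *BC014805* had 10.79, 10.86 and 10.77 in CTL against 9.62, 9.33 and 8.42 in *Pparg*Δ/Δ females, while CTL males lay at 4.85, 5.42 and 4.99 and *Pparg*Δ/Δ males at 8.25, 8.70 and, in the doubtful array, 9.54. It fell by 1.68 in females (SE 0.32, adjusted p = 0.0130). Positive interactions included *Cyp4a12a* (7.75, adjusted p = 0.00378), *Cyp4a12b* (7.04, adjusted p = 0.00808), *Hsd3b5* (6.70, adjusted p = 0.000814), *Mup21* (3.97, adjusted p = 0.000201) and *Cyp7b1* (2.81, adjusted p = 0.00808), which encodes a hydroxylase of oxysterols. *Hsd3b5*, *Mup21* and *Cyp7b1* differed by -0.58, 0.58 and -1.06 in females and by -7.28, -3.39 and -3.87 in males. Without the doubtful array, these interactions lay at -6.38 for *Cyp2b9*, -5.23 for *Sult3a1*, 6.76 for *Cyp4a12a* and 6.81 for *Hsd3b5*, and each kept an adjusted p under the threshold.

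*Alas2*, which encodes the first enzyme of heme synthesis in red cell precursors, was higher in every *Pparg*Δ/Δ female than in any CTL female. It lay at 7.95, 8.02 and 8.11 in CTL and at 10.41, 10.54 and 10.38 in *Pparg*Δ/Δ females, a rise of 2.42 (SE 0.17, adjusted p = 1.62e-05). CTL males were at 10.26, 10.37 and 10.27, just below all *Pparg*Δ/Δ females, and the interaction was 2.28 (adjusted p = 0.00141). The other called erythroid markers were the globins: *Hbb-b1* had 11.55, 11.80 and 11.19 in CTL against 12.71, 13.18 and 13.16 in *Pparg*Δ/Δ females (rise of 1.50, SE 0.27, adjusted p = 0.0103), and *Hba-a1* rose by 1.30 (SE 0.31, adjusted p = 0.0386). Both globin genes have a near-identical copy, so their values are uncertain as to the copy. Of 8 erythroid markers 3 rose, and their mean level was 6.95 to 7.15 in CTL against 7.99 to 8.40 in *Pparg*Δ/Δ females, without overlap. *Slc4a1*, the anion exchanger of the red cell membrane, was not called (5.99, 5.81 and 6.09 against 7.32, 8.18 and 7.82, a difference of 1.81 with adjusted p = 0.139, and 0.00219 without the doubtful array). *Klf1*, the transcription factor of red cell precursors, and *Rhd*, a blood group protein, differed by -0.22 and -0.17 and were not called. In whole liver, more cells of a type and more RNA per cell cannot be told apart, and the part of blood cells in the result for *Alas2* was not tested.

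The start of 3 genes on which these results turn, *Alas2*, *Sult3a1* and *Igfbp2*, is shown because each differs strongly and carries letters of a known motif type in this window. The sequences are RefSeq's for GRCm38.p6, of 300 bases around the annotated start on the strand of the gene, and capitals mark the match. For *Alas2*, on chrX:150547167-150547466 of the forward strand, the motif AGATAA of the GATA type was searched on both strands, and it lies 86 bases before the start as its reverse complement.
Alas2: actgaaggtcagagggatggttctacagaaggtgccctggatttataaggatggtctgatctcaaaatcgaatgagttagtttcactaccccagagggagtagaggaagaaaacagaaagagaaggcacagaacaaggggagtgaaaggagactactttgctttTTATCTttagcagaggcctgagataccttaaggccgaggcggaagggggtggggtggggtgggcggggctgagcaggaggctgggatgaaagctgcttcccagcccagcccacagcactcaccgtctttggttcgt
For *Sult3a1*, on chr10:33857472-33857771 of the forward strand, the motif TTCNNNGAA of the STAT5 type lies 109 bases before the start.
Sult3a1: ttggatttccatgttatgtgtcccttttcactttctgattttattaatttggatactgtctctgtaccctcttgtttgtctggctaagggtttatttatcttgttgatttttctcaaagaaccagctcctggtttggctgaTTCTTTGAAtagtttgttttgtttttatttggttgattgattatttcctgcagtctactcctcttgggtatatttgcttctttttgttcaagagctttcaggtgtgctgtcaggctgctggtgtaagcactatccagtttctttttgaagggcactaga
For *Igfbp2*, on chr1:72824230-72824529 of the forward strand, the E-box CACGTG lies 142 bases before the start, and a second annotated start of the gene has no such match.
Igfbp2: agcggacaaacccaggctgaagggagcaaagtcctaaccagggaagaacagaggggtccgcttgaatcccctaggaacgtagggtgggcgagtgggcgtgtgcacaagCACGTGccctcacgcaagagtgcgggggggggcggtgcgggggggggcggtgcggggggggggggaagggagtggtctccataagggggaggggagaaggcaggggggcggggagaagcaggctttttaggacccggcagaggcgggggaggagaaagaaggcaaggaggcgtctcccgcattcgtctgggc
AGATAA was found in 11.2% of all 32851 windows of this length, in 8.19% of the 232 windows of 188 genes higher in *Pparg*Δ/Δ females that matched by symbol, and in 6.98% of the 172 windows of 129 lower genes. TTCNNNGAA was found in 8.30%, 4.74% and 4.65%, and CACGTG in 7.15%, 6.90% and 11.6%. These are descriptions of letters, not of binding.

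*Igfbp2*, which encodes an insulin-like growth factor binding protein made by the liver, fell in all 3 *Pparg*Δ/Δ females. The signal (chromosome 1 of NCBIM37, 72871066 to 72899048) was 10.56, 10.97 and 10.58 in CTL against 7.67, 7.22 and 6.79 in *Pparg*Δ/Δ females, a fall of 3.48 on the log2 scale (SE 0.21, adjusted p = 5.44e-06). The males differed by -3.86 (adjusted p = 2.18e-06; -3.70 without the doubtful array), and the females of 20 weeks by -3.24. In the list of insulin and growth hormone signalling, none of 23 genes rose and 2 fell, *Igfbp2* and *Insr*, with a median of -0.11. *Insr*, the insulin receptor, had 10.82, 10.82 and 10.88 in CTL against 10.38, 10.38 and 10.56 in *Pparg*Δ/Δ females, a fall of 0.40 (SE 0.09, adjusted p = 0.0377). *Igfbp1*, a binding protein that insulin represses, had 9.79, 10.78 and 10.64 in CTL against 11.91, 11.25 and 12.60 in *Pparg*Δ/Δ females, but the difference of 1.52 did not pass the test (SE 0.44, adjusted p = 0.0938).

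Of the 5 lists of lipid metabolism (fatty acid uptake, lipid droplets, de novo lipogenesis, cholesterol synthesis and fatty acid oxidation), that of fatty acid uptake held called members. *Cd36*, the fatty acid translocase of the plasma membrane and a PPARγ target (chromosome 5, 17287834 to 17355562), had 7.57, 8.11 and 9.02 in CTL against 10.78, 10.83 and 11.27 in *Pparg*Δ/Δ females. The rise was 2.73 (SE 0.28, adjusted p = 0.000328), and males had one of 3.44 (adjusted p = 5.10e-05; 3.49 without the doubtful array). *Fabp2*, the intestinal fatty acid binding protein, rose by 1.01 (SE 0.18, adjusted p = 0.0112), from 8.93, 9.14 and 9.64 to 10.09, 10.18 and 10.48. *Fabp4*, the fatty acid binding protein of fat cells and macrophages, rose by 1.16 (SE 0.26, adjusted p = 0.0300), from 6.71, 7.30 and 7.31 to 8.01, 8.22 and 8.59. *Lipc*, hepatic lipase, fell by 0.66 (SE 0.11, adjusted p = 0.00717), from 10.71, 10.76 and 10.72 to 10.24, 10.13 and 9.84. The list of 21 genes of uptake and binding thus had 3 members higher and 1 lower, with a median of -0.13. *Fabp4* was the sole adipocyte marker of 8 that rose. *Adrb3*, the adrenergic receptor of fat cells, fell by 0.85 (SE 0.15, adjusted p = 0.0112). *Adipoq* and *Lep*, the genes of adiponectin and leptin, had CTL means of 3.92 and 4.44 with differences of -0.19 and 0.0007, and the mean level of the 8 markers overlapped (5.52 to 5.76 in CTL, 5.46 to 5.75 in *Pparg*Δ/Δ females).

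No member of the lists for lipid droplets and triglyceride storage (29 genes), de novo lipogenesis (28), cholesterol synthesis (24) or fatty acid oxidation (35) passed the test, with medians of 0.10, 0.19, -0.12 and 0.03. Some members had values that did not overlap between genotypes. *Mogat1*, a monoacylglycerol acyltransferase, had 4.58, 5.03 and 4.69 in CTL against 6.24, 6.85 and 8.20 in *Pparg*Δ/Δ females, with a difference of 2.33 (SE 0.63, adjusted p = 0.0698, and 0.0271 without the doubtful array). *Elovl6*, a fatty acid elongase, had 11.28, 10.42 and 10.88 in CTL against 11.74, 11.91 and 11.97 in *Pparg*Δ/Δ females, with a difference of 1.01 (SE 0.26, adjusted p = 0.0576, and 0.00720 without that array). *Fitm1*, a lipid droplet protein, differed by 1.00 (adjusted p = 0.158) and *Me1*, malic enzyme, by 1.03 (adjusted p = 0.117, and 0.0364 without that array). *Plin2*, the main coat protein of liver lipid droplets, had 11.99, 12.16 and 11.76 in CTL against 11.68, 11.70 and 11.75 in *Pparg*Δ/Δ females (difference -0.26, SE 0.10, adjusted p = 0.201). An adjusted p above the threshold does not show that these levels were equal.

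**Figure D3:**
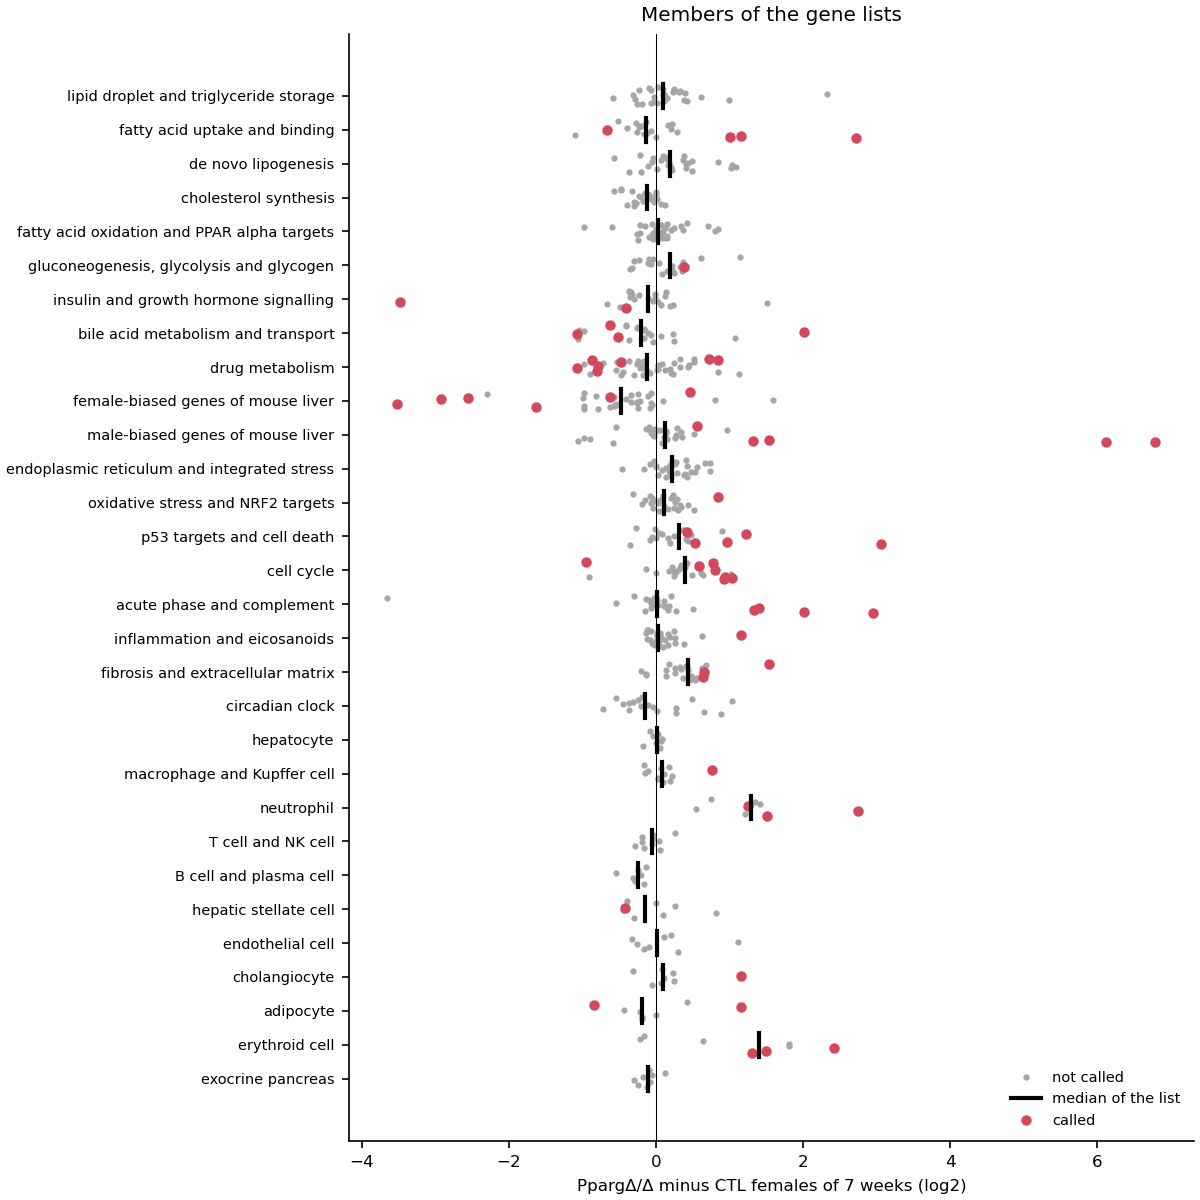
Difference between *Pparg*Δ/Δ and CTL females of 7 weeks (log2, x axis) for every measured member of the 30 gene lists (y axis), called members in red, others in grey, with the median of each list as a bar. The neutrophil and erythroid lists have medians of 1.30 and 1.40.

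Among genes of bile acids and of drug metabolism, most called members fell. *Abcc3*, the basolateral exporter of bile acid conjugates, had 11.28, 11.44 and 11.43 in CTL against 10.33, 10.30 and 10.30 in *Pparg*Δ/Δ females, a fall of 1.07 (SE 0.22, adjusted p = 0.0195). *Abcb11*, the canalicular bile salt export pump, fell by 0.52 (SE 0.13, adjusted p = 0.0434) and *Abcg8*, the canalicular sterol transporter, by 0.62 (SE 0.13, adjusted p = 0.0262). Against these, *Slc10a2*, the sodium-dependent bile acid transporter best known from ileum and bile ducts, rose by 2.01 (SE 0.31, adjusted p = 0.00479), from 7.82, 6.84 and 8.04 to 9.63, 9.84 and 9.25. The list of 22 bile acid genes had 1 higher and 3 lower, with a median of -0.20. Of 44 genes of drug metabolism, 2 rose (4.55%, against 1.05% of all genes tested) and 5 fell (11.4%, against 0.831%), with a median of -0.12. *Nr1i3*, the nuclear receptor CAR that induces drug-metabolising enzymes, had 12.00, 12.07 and 12.02 in CTL against 10.69, 11.42 and 10.78 in *Pparg*Δ/Δ females, a fall of 1.07 (SE 0.24, adjusted p = 0.0319). The other falls were in *Ces2a* (0.87), *Cyp2c70* (0.81), *Gsta4* (0.79) and *Sult1a1* (0.47), an esterase, a P450, a glutathione transferase and a sulfotransferase, with adjusted p from 0.0121 to 0.0475. *Ephx1*, microsomal epoxide hydrolase, rose by 0.84 (SE 0.11, adjusted p = 0.00128) and *Aldh1a1*, a retinaldehyde dehydrogenase, by 0.72 (SE 0.14, adjusted p = 0.0130).

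*Cdkn1a*, which encodes the cell cycle inhibitor p21 and is a target of p53 (chromosome 17, 29230720 to 29237667), had 6.85, 8.01 and 6.72 in CTL against 10.17, 9.98 and 10.60 in *Pparg*Δ/Δ females. The rise of 3.06 (SE 0.71, adjusted p = 0.0371) had an adjusted p of up to 0.110 when 1 array was left out, and 0.00476 with only the 6 females in the fit. Of 22 listed p53 targets and death genes, 5 rose and none fell, with a median of 0.31. *Btg2*, an antiproliferative gene, rose by 1.22 (SE 0.21, adjusted p = 0.00805), from 7.30, 7.25 and 7.44 to 8.29, 8.61 and 8.76. *Eda2r*, a receptor of the tumour necrosis factor family, rose by 0.96 (SE 0.18, adjusted p = 0.0128), *Ccng1*, cyclin G1, by 0.54 (SE 0.12, adjusted p = 0.0259) and *Zmat3*, a zinc finger protein, by 0.42 (SE 0.10, adjusted p = 0.0399). The signal of *Eda2r* was low, with means of 4.59 in CTL and 5.55 in *Pparg*Δ/Δ females. Of 26 cell cycle genes 6 rose and 1 fell, with a median of 0.39. *Mcm6*, a subunit of the replicative helicase, had 5.76, 5.79 and 5.85 in CTL against 6.56, 6.76 and 6.50 in *Pparg*Δ/Δ females, a rise of 0.80 (SE 0.10, adjusted p = 0.00109). The mitotic genes *Aurka*, *Ube2c*, *Ccna2*, *Ccnb2* and *Ccnb1* rose by 0.59, 0.77, 0.93, 0.93 and 1.04, with adjusted p from 0.00608 to 0.0429. *Tk1*, thymidine kinase, fell by 0.95 (SE 0.18, adjusted p = 0.0148), but the transcript clusters for *Tk1* and *Ccnb1* lie on chromosomes 8 and 7, whereas RefSeq places these genes on 11 and 13. The same holds for 11 of the 407 called genes, *Pgk1* among them, whose values are uncertain.

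The acute phase proteins with called members were serum amyloid A, lipocalin and an orosomucoid. *Saa1* had 6.38, 5.31 and 6.31 in CTL against 8.05, 9.15 and 9.66 in *Pparg*Δ/Δ females, a rise of 2.95 (SE 0.51, adjusted p = 0.00885). *Saa2* rose by 2.02 (SE 0.47, adjusted p = 0.0383), and probes of this near-identical pair may read either. *Lcn2*, which binds bacterial siderophores, rose by 1.40 (SE 0.26, adjusted p = 0.0114), from 10.76, 10.62 and 10.78 to 11.41, 12.37 and 12.59. *Orm2* rose by 1.33 (SE 0.30, adjusted p = 0.0321). The other 24 of the 28 listed genes of the acute phase and complement did not pass the test, and the list median was 0.02. Markers of neutrophils stood higher in the same arrays. *Ngp*, a granule protein of neutrophils, had 5.75, 5.50 and 6.61 in CTL against 7.78, 8.59 and 9.76 in *Pparg*Δ/Δ females (rise of 2.75, SE 0.41, adjusted p = 0.00413). *S100a8*, a calcium-binding protein of neutrophils, rose by 1.51 (SE 0.31, adjusted p = 0.0220), and *Ltf*, lactoferrin, by 1.25 (SE 0.27, adjusted p = 0.0264). These were 3 of 8 neutrophil markers called, and the mean level of the list was 5.05 to 5.44 in CTL against 5.87 to 7.40 in *Pparg*Δ/Δ females, with the third *Pparg*Δ/Δ female highest in *Ngp*, *S100a8*, *Ltf* and *Saa2*. *Saa1* and *Lcn2* are also made by hepatocytes, and the part of neutrophils in these rises was not tested.

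Among genes of inflammation and scar formation, *Spp1*, the secreted phosphoprotein osteopontin, had 9.15, 9.16 and 9.01 in CTL against 9.80, 10.37 and 10.64 in *Pparg*Δ/Δ females, a rise of 1.16 (SE 0.20, adjusted p = 0.00861). It was the sole called member of 30 genes of inflammation and eicosanoids (3.33%, against 1.05% of all genes tested called higher), whose median was 0.03. In the list for fibrosis and extracellular matrix 3 of 26 genes rose and none fell, with a median of 0.43. *Anxa2*, a calcium-dependent membrane protein, rose by 1.54 (SE 0.23, adjusted p = 0.00427), from 7.34, 7.45 and 7.49 to 8.57, 8.65 and 9.67. *Mmp13*, a collagenase, rose by 0.66 (SE 0.14, adjusted p = 0.0200) and *Col4a2*, a chain of basement membrane collagen, by 0.64 (SE 0.12, adjusted p = 0.0128). The signal of *Mmp13* was low, with means of 4.97 in CTL and 5.63 in *Pparg*Δ/Δ females. *Gpnmb*, a glycoprotein of lipid-laden macrophages, rose by 0.76 (SE 0.16, adjusted p = 0.0233), as 1 of 12 macrophage and Kupffer cell markers, with mean levels of 8.47 to 8.57 in CTL against 8.53 to 8.77 in *Pparg*Δ/Δ females. *Gpnmb* itself had low signals, with means of 5.09 in CTL and 5.86 in *Pparg*Δ/Δ females. *Reln*, a stellate cell marker, fell by 0.41 (SE 0.10, adjusted p = 0.0369), as the sole called gene of 8 such markers. Of these 8, 3 had a positive difference. Their mean level overlapped between genotypes (9.23 to 9.31 in CTL, 9.15 to 9.29 in *Pparg*Δ/Δ females). No marker of T and NK cells, B and plasma cells, endothelium or exocrine pancreas was called, although the mean level of the 7 B cell markers did not overlap (5.42 to 5.83 in CTL against 5.15 to 5.39 in *Pparg*Δ/Δ females). *Spp1*, which bile duct cells also express, was the sole called gene of 8 cholangiocyte markers.

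Several of the largest differences lay outside the listed processes. *Mtnr1a*, a melatonin receptor, had 5.01, 5.20 and 5.07 in CTL against 7.58, 7.84 and 8.27 in *Pparg*Δ/Δ females, a rise of 2.80 (SE 0.32, adjusted p = 0.000865). *Cyp26a1*, which degrades retinoic acid, rose by 2.19 (SE 0.48, adjusted p = 0.0278), from 6.08, 5.85 and 6.11 to 9.15, 7.46 and 8.00. *Wdr67*, now named *Tbc1d31*, rose by 2.17 (SE 0.33, adjusted p = 0.00444), *Aqp4*, a water channel, by 2.08 (SE 0.26, adjusted p = 0.00122), *Serinc2*, a membrane protein, by 2.08 (SE 0.28, adjusted p = 0.00209), and *Ren1*, renin, by 2.11 (SE 0.50, adjusted p = 0.0400). Among the falls, *Gpr110*, an adhesion receptor now named *Adgrf1*, had 7.29, 8.18 and 8.83 in CTL against 5.45, 6.60 and 4.89 in *Pparg*Δ/Δ females, a difference of -2.46 (SE 0.45, adjusted p = 0.0113). *Pcp4l1* fell by 2.15 (SE 0.20, adjusted p = 0.000183), from 8.80, 9.61 and 9.49 to 7.02, 7.32 and 7.12. *Ccbl2*, a kynurenine aminotransferase now named *Kyat3*, fell by 1.88 (SE 0.30, adjusted p = 0.00613), from 11.42, 11.23 and 11.20 to 9.94, 8.92 and 9.36. *Sult5a1*, a sulfotransferase, fell by 1.71 (SE 0.22, adjusted p = 0.00140), *Avpr1a*, the vasopressin receptor of hepatocytes, by 1.69 (SE 0.26, adjusted p = 0.00426) and *Emp2*, a membrane protein, by 1.46 (SE 0.15, adjusted p = 0.000441). *Apom*, an apolipoprotein of high density lipoprotein, fell by 1.39 (SE 0.33, adjusted p = 0.0391) and the chemokine *Ccl9* by 1.35 (SE 0.16, adjusted p = 0.000869).

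**Figure D4:**
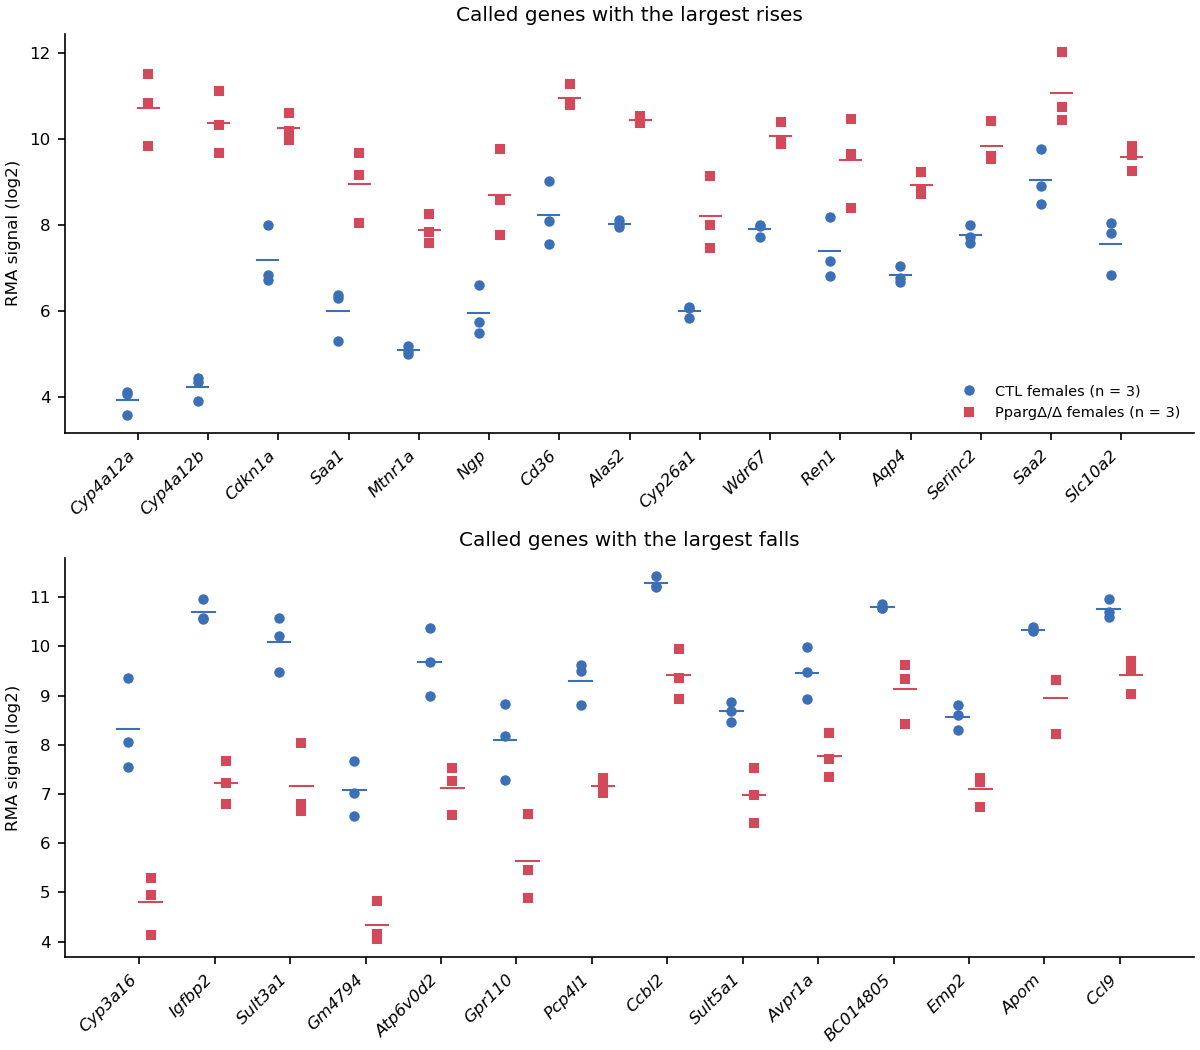
RMA signal (log2, y axis) in each of the 3 CTL and 3 *Pparg*Δ/Δ females of 7 weeks for the called genes with the largest rises, 15 of them, and 14 of those with the largest falls (x axis), with lines at the group means. The genes were chosen among called genes whose genotypes do not overlap.

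In females of 20 weeks, which were other mice, 220 of the 227 genes higher at 7 weeks and 167 of the 180 lower ones had a difference of the same sign, where 42.6% of all genes tested were higher in *Pparg*Δ/Δ females of 20 weeks. The medians at 20 weeks were 0.46 and -0.35. The ages were normalised separately, so these differences were set side by side without a test. *Cyp4a12a* differed by 1.49 at 20 weeks against 6.79 at 7 weeks, with the *Pparg*Δ/Δ females of 20 weeks at 6.64 ± 0.75 (SD, n = 3). *Cyp3a16* differed by -0.38 against -3.52, and *Cdkn1a* by 1.53 against 3.06. In the other direction *Ccbl2* had -3.08 against -1.88, *Ngp* 5.45 against 2.75 and *S100a8* 3.13 against 1.51. *Igfbp2* (-3.24 and -3.48), *Serinc2* (2.05 and 2.08) and *Atp6v0d2* (-2.46 and -2.56) were close at both ages.

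**Figure D5:**
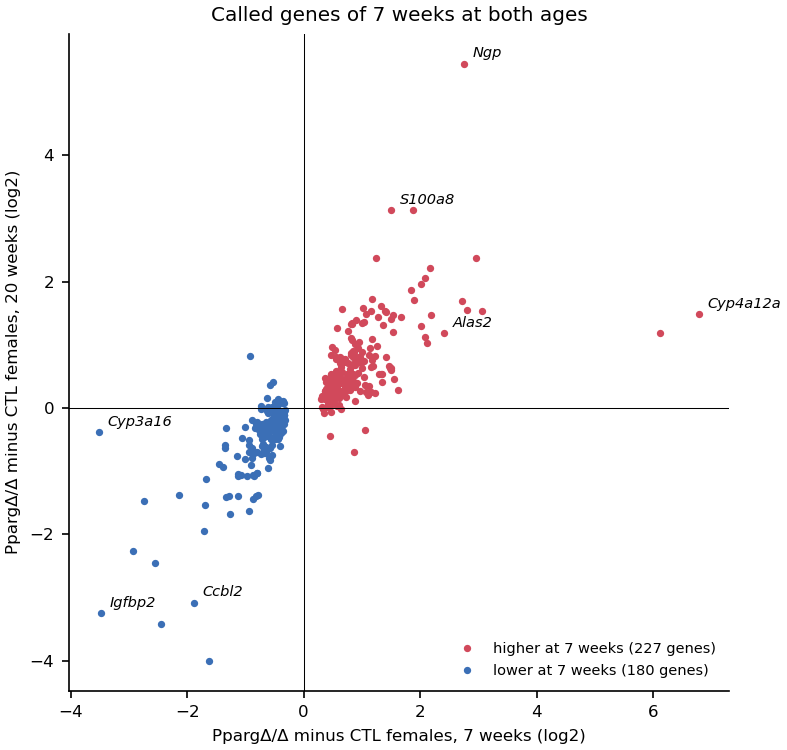
Difference between *Pparg*Δ/Δ and CTL females at 20 weeks (log2, y axis) against that at 7 weeks (log2, x axis) for the 407 genes called at 7 weeks, with 227 higher genes in red and 180 lower genes in blue. *Ngp* has 5.45 at 20 weeks, and *Cyp4a12a* has 6.79 at 7 weeks and 1.49 at 20 weeks.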

How the data were processed

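Total RNA of whole liver, extracted with Trizol, was hybridised to Affymetrix Mouse Gene 1.0 ST arrays, 1 mouse per array. The values used are log2 signals that the authors made with robust multi-array averaging (RMA, with Affymetrix Expression Console 1.1.2637.26569 per the submitters' processing notes) and deposited for each age, with annotation on NCBIM37. Of 28350 main transcript clusters, 25004 named 1 gene, and the cluster of highest mean was kept for each of 21652 genes. No filter on dim genes was set. A linear model of 4 group means was fitted over all 12 arrays of 7 weeks (limma 3.58.1, R 4.3.3, data.table version 1.17.8), with Benjamini-Hochberg adjustment over the female and male comparisons together and over the interaction alone, and a threshold of 0.05. On simulated data the fit found 36%, 84%, 98% and 98% of genes changed by 0.5, 1, 2 and 3 on the log2 scale (50 genes each among 21652 of the female comparison), with 2.47% false calls. Unlike the data, the simulation had independent normal noise per gene and no change in males, so these rates need not hold here. The labels do not say whether replicates came from separate litters or days. The p-values rest on the spread pooled over all 12 mice of 7 weeks, males among them.

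Members and gene lists were chosen with earlier results of these data known. The genes named were those the study discusses, the checks of the labels, the 15 called genes of largest difference in each direction without overlap, the 4 members of smallest p and the called members of each list, and the 5 largest called interactions in each direction. The lists covered lipid and glucose metabolism, insulin and growth hormone signalling, bile acids, drug metabolism, sex-biased genes, stress, p53, cell cycle, acute phase, inflammation, fibrosis, clock and cell type markers. Of those whose result is not given in the text, glycolysis and related paths had 1 gene higher of 22 (*Pgk1*), NRF2 targets 1 of 25 (*Ephx1*), and the endoplasmic reticulum stress and clock lists none of 29 and 18. The 38 genes the study names, some of them chosen on these samples and so no independent evidence, had 3 higher (*Mmp13*, *Pparg*, *Spp1*) and 1 lower. Of the called genes, 1 that the rule names is not reported here, and it stays in the counts over all genes and in those of its lists. Values of 20 weeks came from the table of series values, since column names of the 20-week table do not state genotype, and were not tested. Promoters and current symbols were taken from RefSeq, and figures were drawn with Python 3.11.15 (pandas 2.3.3, matplotlib 3.10.9).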

Additional observations from a re-analysis of the deposited data

Results flagged for a closer look

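The effect of genotype differed between females and males of 7 weeks for 17 of the genes named here (limma interaction, adjusted p under 0.05, female minus male difference on the log2 scale), and no explanation was weighed. Positive values were found for *Cyp4a12a* (7.75), *Cyp4a12b* (7.04), *Hsd3b5* (6.70), *Mup21* (3.97), *Cyp7b1* (2.81), *Mup20* (2.67), *Cyp2d9* (2.54) and *Alas2* (2.28). Of these, *Cyp4a12a*, *Cyp4a12b*, *Cyp2d9*, *Mup20* and *Alas2* rose in females, and *Hsd3b5*, *Mup21* and *Cyp7b1* fell in males. *Cyp7b1* also differed by -1.06 in females, which was not called (adjusted p = 0.0513).

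Negative values were found for *Cyp2b9* (-6.46), *Cyp2b13* (-6.10), *Sult3a1* (-5.62), *Cyp2a22* (-5.45), *BC014805* (-5.43), *Gm4794* (-3.32), *Atp6v0d2* (-3.21), *Lcn2* (-2.23) and *Trim24* (-1.36). For *Cyp2b9*, *Cyp2b13* and *Cyp2a22*, females differed by -0.05, -0.54 and -0.16 and males by 6.40, 5.56 and 5.29. *Lcn2* was higher in both sexes, by 1.40 in females and 3.63 in males. The others had a negative difference in females and a positive one in males. The male side of each value holds the array labelled male *Pparg*Δ/Δ replicate 3, whose *Xist* and Y-linked signals are those of females. For *Gm4794*, the male difference was 0.58 with this array. Without it, the interaction of *Gm4794* was -2.80, close to the female difference of -2.74, so the male difference was small. Without that array 16 of the 17 stayed past the threshold, and *Atp6v0d2* did not (-3.12, limma adjusted p = 0.0606). *Cyp3a16* moved the other way, from -4.55 (adjusted p = 0.0658) to -3.74 (adjusted p = 0.0207).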

How the results depend on the processing

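The counts of called genes moved with the test more than the differences did. Adjusting the female comparison alone gave 121 higher and 90 lower genes. Without moderation of the variance, 59 and 50 were called in females, 230 and 77 in males, and 0 positive and 1 negative interactions (1624 genes had an unadjusted interaction p under the threshold in the main analysis). Array weights gave 416 higher and 416 lower in females and 375 lower in males. A mean-variance trend with robust moderation gave 10 positive and 10 negative interactions. Centring the arrays, by at most 0.0727, turned the males' split to 519 higher and 479 lower, and the females kept 225 and 172. Leaving out 1 array gave 106 to 265 higher and 77 to 196 lower in females, 378 to 729 and 122 to 291 in males, and 9 to 30 positive and 8 to 35 negative interactions. The female counts were lowest without CTL female replicate 1 and highest without the array labelled male *Pparg*Δ/Δ replicate 3. The cause was not tested.

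Of the 74 named called genes, 40 stayed called whichever array was left out, and 18 under every other alternative. None changed sign, but as their genotypes do not overlap, leaving out 1 array could not reverse a sign. Without CTL female replicates 1, 2 and 3, 28, 28 and 26 of them lost the call, and without *Pparg*Δ/Δ female replicates 1, 2 and 3, 16, 20 and 26 did. *Abcb11*, *Cyp2c70*, *Ccnb1* and *Zmat3* lost it in 16, 16, 15 and 14 of 22 alternatives, and *Cdkn1a* in 9. *Hsd3b5*, not called, ranged from -1.08 to 0.044 when 1 array was left out.

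With the replicate number as a block, 183 genes were higher and 138 lower in females, 291 of these 321 among the 407. Same-numbered CTL and *Pparg*Δ/Δ females correlated at -0.02, -0.18 and -0.05 in their deviations from the group means, and differently numbered ones at -0.06 to 0.12. With 3 mice per genotype, this check cannot tell whether the numbers pair the mice. Depth does not apply to arrays, and 3 per group limit the precision.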

Other observations

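The genes below were chosen after their values were seen. *Hamp*, which encodes hepcidin, the hormone that lowers iron uptake, had 12.37, 12.58 and 12.19 in CTL females against 10.68, 4.17 and 11.34 in *Pparg*Δ/Δ females. The genotypes did not overlap, but 1 *Pparg*Δ/Δ female lay far below the others, and the difference of -3.65 (SE 1.99) was not called (limma adjusted p = 0.415). *Hamp2*, its close copy, had 12.41, 11.92 and 11.86 against 11.45, 6.89 and 10.95, lowest in the same mouse, and *Tfrc*, the transferrin receptor, had 6.92, 6.81 and 7.60 against 7.47, 9.28 and 8.36, highest in it. CTL males had *Hamp* at 12.15, 11.87 and 11.96, and the *Pparg*Δ/Δ males at 3.55, 4.73 and, in the array that went against its label, 12.09.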
